A study of Mus musculus with 18 samples.

Results

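The response of medullary thymic epithelial cells (mTECs) to loss of Fezf2 was compared, gene by gene, with their response to loss of Aire. The quantity described is a difference of effects: the change between Fezf2 KO and its own wild type (WT), called the Fezf2 effect, minus the change between the labelled Aire KO libraries and their own WT, called the Aire effect. The 12 RNA-seq libraries of these groups, of 18 in the series, entered one model, with 3 libraries each of Fezf2 KO, WT for Fezf2, Aire KO and WT for Aire. All were sorted mTECs of C57BL/6 mice, per the labels. Fezf2 KO and its WT appear in the count columns as Fezf2cKO and ctl, so sources differ on whether that knockout was conditional; the labels give neither a Cre driver nor the deleted parts of Aire and Fezf2. Within a group the libraries are called A, B and C. Nothing states that they came from separate animals. The libraries of each Aire group differ in sex and so come from more than 1 animal, while the spread within the Fezf2 groups may be technical.

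mTECs transcribe many genes that are otherwise restricted to single tissues and present their peptides to developing T cells, which removes or diverts T cells that recognise self. Aire is a chromatin-associated regulator of a large part of this repertoire, and autoimmunity follows its loss in mice and people. Fezf2 is a zinc finger transcription factor, first known from the developing forebrain, that supports tissue-restricted genes in mTECs independently of Aire. Serum proteins, digestive enzymes, hormones and milk proteins are typical of the transcripts involved.

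Exon reads per library ranged from 3935102 to 5928985, and taking 3 reads as the floor, a gene without reads is compatible with up to 0.506 to 0.762 CPM, the exon reads scaled to equal library totals. Such floors cover counting error only. Library B of the WT for Fezf2 stood apart. It received a sample quality weight of 0.142 in voom, against 0.789 to 1.63 in the other 11 libraries, and its 10 most abundant genes held 11.3% of reads, against 8.13% and 8.34% in the other libraries of its group. From Y-linked genes all 6 libraries of the Fezf2 comparison were female, while each group of the Aire comparison held 1 female and 2 males, of which the female of the WT, library B, had 12.6 CPM of Y-linked reads. The mTEC markers Epcam, Krt5, Krt8, H2-Aa, Ciita and Cd80 were detected in every group. Between the WT groups 164 genes (0.992%) were higher and 128 (0.774%) lower in the WT for Fezf2, together 1.77% of 16532 genes tested (edgeR quasi-likelihood test, Benjamini-Hochberg adjusted p under 0.05, as for all calls below). These counts were 26 and 13 without library A of the WT for Aire, 34 and 23 without its B, 87 and 88 without its C, and at most 102 and 83 without Fezf2 KO A or B. Without library B of the WT for Fezf2 241 were lower, and without its C or Aire KO B 78 and 80. A difference of effects also holds that difference between the controls.

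Each regulator was first read in all groups. Fezf2 stood at 8.87, 8.19 and 22.7 CPM in Fezf2 KO, against 638, 718 and 558 CPM in its WT, while the labelled Aire KO libraries held 729, 878 and 1090 CPM, against 645, 551 and 710 CPM in theirs. Its Fezf2 effect was -5.60 on the log2 scale (SE 0.33, adjusted p = 9.29e-08), while its Aire effect of 0.50 (SE 0.27) did not pass (adjusted p = 0.279). Aire stood at 954, 1013 and 782 CPM in Fezf2 KO, against 1268, 1062 and 1215 CPM in its WT, while the labelled Aire KO libraries held 3839, 4208 and 4113 CPM, against 1969, 1842 and 2332 CPM in theirs. The Aire transcript was thus higher in the labelled Aire KO libraries (0.99, SE 0.16, adjusted p = 0.000423), with no overlap. Its Fezf2 effect of -0.37 did not pass (adjusted p = 0.163) but was called lower in 3 of 20 alternative settings. Every Fezf2 KO library lay below every library of its WT. The controls themselves differed in Aire, which stood lower in those of the Fezf2 comparison (-0.79, SE 0.16, adjusted p = 0.0197). Since the position of the deletion is unknown, the Aire level in the labelled Aire KO libraries does not test it. Directions below are given for the labelled Aire KO libraries.

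Most genes with a called effect were called in only 1 of the comparisons, which by itself does not show that the effects differ. The Fezf2 effect was called for 1460 genes (8.83%), 666 higher (4.03%) and 794 lower (4.8%), and the Aire effect for 2043 (12.4%), 460 higher (2.78%) and 1583 lower (9.58%). KO and WT libraries did not overlap for 26.9% of all genes in the Fezf2 comparison and 33.4% in the Aire comparison. These shares are the background for statements on overlap below, except for genes named from the classes. Those were picked among genes without overlap in each comparison called. Their lack of overlap there follows from that choice and is not a result. Without library B of the WT for Fezf2 1042 Aire effects were called higher, and without Aire KO B or C or any 1 library of the WT for Aire 198 to 286. Without Fezf2 KO A or B 405 and 360.0 Fezf2 effects were higher, and without any 1 of the Fezf2 KO libraries 352 to 458 were lower. The difference of effects was called for 2080 genes (12.6% of those tested). It was above 0 for 1443 (8.73%), meaning that the gene stood higher in Fezf2 KO than in the labelled Aire KO libraries when each was set against its own WT, and below 0 for 637 (3.85%). Without library B of the WT for Fezf2 it was called above 0 for 1836 genes and below 0 for 933, and without Fezf2 KO B or C or WT for Aire A or B below 0 for 395 to 423. The sizes were unequal: the median difference was 3.10 on the log2 scale among the 1443 genes and -1.47 among the 637. Near the threshold, Pced1a was called (adjusted p = 0.0499, difference -1.06) and Celsr1 was not (adjusted p = 0.05015, difference -0.84).

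Genes were placed in 8 classes from the calls of both effects and of the difference itself. A gene counts as dependent on 1 regulator only where that regulator's effect was called, the other's was not, and the difference of effects was called too. By this rule 897 genes (5.43% of those tested) were lower only in the labelled Aire KO libraries and 302 (1.83%) lower only in Fezf2 KO, while 131 (0.792%) were lower in both. The 131 made up 16.5% of the 794 genes lower in Fezf2 KO and 8.28% of the 1583 lower in the labelled Aire KO libraries. In opposite directions, 86 genes (0.52%) were higher in Fezf2 KO and lower in the labelled Aire KO libraries, and 49 (0.296%) were lower in Fezf2 KO and higher in the labelled Aire KO libraries. A total of 282 genes (1.71%) were higher only in Fezf2 KO, 159 (0.962%) only in the labelled Aire KO libraries and 41 (0.248%) in both. A further 469 genes were lower in the labelled Aire KO libraries and 312 in Fezf2 KO without a call for the other effect or for the difference. Likewise 211 genes were higher in the labelled Aire KO libraries and 257 in Fezf2 KO. None of these belongs to a class, and whether they depend on 1 regulator only is undecided. Over all 16532 genes the effects had a Pearson r of 0.037 and a Spearman rho of 0.024, a description across genes, which share libraries and are not independent replicates.

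**Figure D1:**
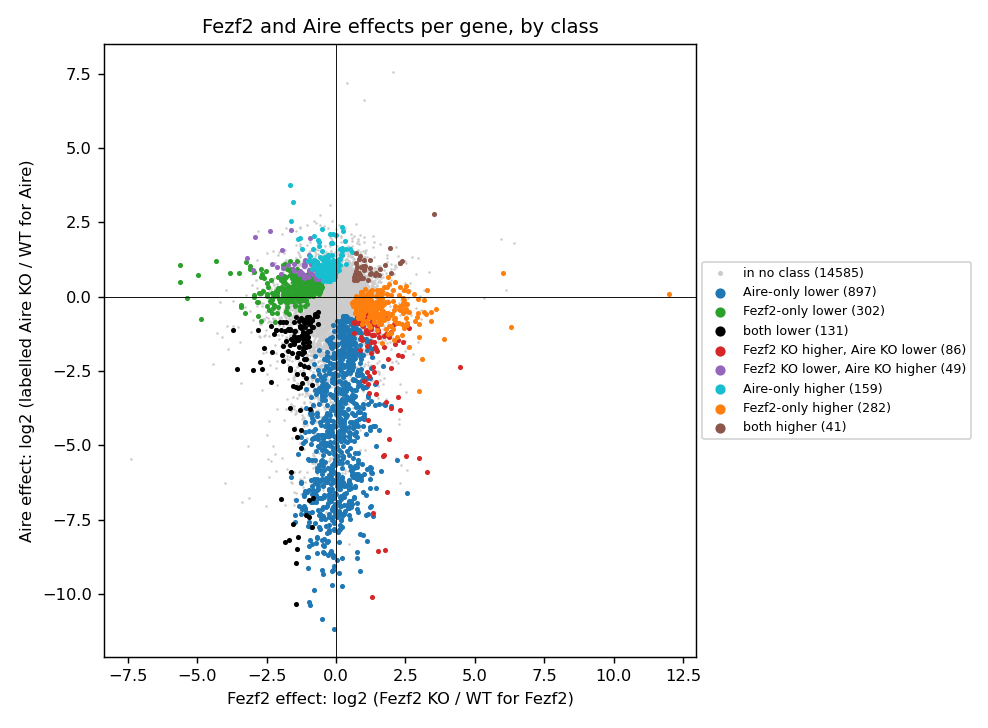
Fezf2 effect (x axis) and Aire effect (y axis) of each gene tested, in log2 of KO over its own WT, coloured by class with the number of genes. Genes lower only in the labelled Aire KO libraries reach below -10 on the y axis. Their place near 0 on the x axis follows largely from the class rule, which admits no called Fezf2 effect. The farthest point to the right is the predicted gene Gm6768, with 0 reads in all 3 WT for Fezf2 libraries. Log2 values of genes without reads in a group depend on the prior count.

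The genes lower only in the labelled Aire KO libraries were often silent there. The class admits no gene with a called Fezf2 effect, so Fezf2 effects near 0 follow largely from the rule. In 244 of the 897 there was not a single read in the 3 labelled Aire KO libraries. Of all 16532 genes tested, 367 had none there, these 244 included. The class was chosen for a called fall in these same libraries, so genes without reads are in part a product of the rule. The median Aire effect over the class was -4.22 on the log2 scale, or -3.47 with genes without reads set to their bound, and the median Fezf2 effect was 0.15, with 41.4% of the class below 0. Median levels in the controls were low, at 9.34 CPM in the WT for Fezf2 and 7.07 CPM in the WT for Aire, against 20.9 and 20.0 CPM over all genes tested.

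Retnla, a secreted resistin-like protein (ENSMUSG00000061100, GRCm38 chr16:48842552-48844461), stood at 86.1, 115 and 75.1 CPM in Fezf2 KO, against 72.1, 132 and 86.0 CPM in its WT. It had 0 reads in all 3 labelled Aire KO libraries, against 75.7, 54.3 and 58.6 CPM in their WT. It was at least 269-fold lower there (adjusted p = 7.75e-08), taking 3 reads over the group as the floor, with a Fezf2 effect of -0.07 (SE 0.24, adjusted p = 0.901) and a difference of at least 8.0 (adjusted p = 7.49e-07). The Fezf2 KO libraries overlapped their WT, and those labelled Aire KO did not. Prss29, a serine protease, stood at 52.0, 52.6 and 33.0 CPM in Fezf2 KO, against 50.4, 81.3 and 62.0 CPM in its WT, and at 0 reads in the labelled Aire KO libraries, against 62.4, 50.2 and 36.5 CPM. Mup6, a major urinary protein of the liver, stood at 26.9, 28.8 and 26.5 CPM in Fezf2 KO, against 16.2, 15.9 and 13.7 CPM in its WT, and again had 0 reads in the labelled Aire KO libraries, against 19.4, 17.4 and 12.5 CPM. Its Fezf2 KO libraries all lay above their WT, yet that effect of 0.85 missed the threshold (adjusted p = 0.052; passed in 8 of 20 alternative settings). Cyp1a2, a liver cytochrome P450, Cel, the bile salt-activated lipase of the pancreas, and Psg22, a pregnancy-specific glycoprotein, also had no reads in the labelled Aire KO libraries. They were at least 100-fold, 96.0-fold and 50.9-fold lower there, with Fezf2 effects of 0.22, -0.16 and 0.74 that did not pass (adjusted p = 0.757, 0.825 and 0.201).

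Promoters of the named genes are shown because 4 of these genes share a motif there. Among 38 genes named from the 8 classes, 28 had a promoter in the RefSeq table used (GRCm38.p6, first listed start). Of all genes tested, 74.7% had one. The named genes were picked for large effects, and the share of the motif over whole classes is not given. The hexamer TATAAA, searched on the gene's strand between 40 and 21 bases before the start, was found in 7 of the 28 and in 2.34% of the 12352 promoters of tested genes, and its reverse complement TTTATA in 0.46%. The 7 were Retnla, Prss29, Mup6 and Cyp1a2 of the genes lower only in the labelled Aire KO libraries, and Il13, Il13ra2 and Krtap3-2 of other classes. Cel, the remaining named gene lower only in the labelled Aire KO libraries with a promoter, lacked the motif. The last 60 bases before the start follow, 5′ to 3′ on the gene's strand, with TATAAA in capitals. A match describes letters in this window and does not show a functional site.
Retnla (chr16:48842549-48842608, plus strand): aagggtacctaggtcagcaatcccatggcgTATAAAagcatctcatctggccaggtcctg
Prss29 (chr17:25318594-25318653, plus strand): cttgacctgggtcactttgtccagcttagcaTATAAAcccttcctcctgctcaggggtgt
Mup6 (chr4:60003421-60003480, plus strand): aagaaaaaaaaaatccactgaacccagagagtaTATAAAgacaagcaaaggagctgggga
Cyp1a2 (chr9:57683656-57683715, minus strand): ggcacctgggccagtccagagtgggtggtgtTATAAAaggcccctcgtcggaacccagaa
Il13 (chr11:53634703-53634762, minus strand): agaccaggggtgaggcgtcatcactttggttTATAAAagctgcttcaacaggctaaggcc
Foxd3 (chr4:99656239-99656298, plus strand, without the motif): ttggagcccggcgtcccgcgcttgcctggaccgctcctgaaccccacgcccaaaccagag

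Genes lower only in the labelled Aire KO libraries lay next to each other along the chromosomes. Of the 897, 278 (31.0%) had another member of the class as an adjacent tested gene, whereas 10.1% of all tested genes had such a neighbour. They formed 118 runs of 2 or more adjacent genes, 34 of them of 3 or more. The longest run held 7 genes of the Bpif family of secreted lipid-binding proteins, Bpifa2, Bpifa1, Bpifa5, Bpifb1, Bpifb5, Bpifb9a and Bpifb9b, at chr2:154008265-154320646. Other runs held the 3 fibrinogen chain genes Fgg, Fga and Fgb, the alcohol dehydrogenases Adh7, Adh1, Adh6a and Adh6b, and the gel-forming mucins Muc6, Muc2 and Muc5ac. Neighbours in gene families can share reads, and many of these runs are families. The other classes also had more neighbours of their own class than all genes did, at 10.9% against 3.57% for the genes lower only in Fezf2 KO and 13% against 1.54% for those lower in both. Relative to all genes, the excess of those lower in both was larger than that of the 897. Runs lower in both comparisons included the glutathione transferases Gstm3, Gstm2 and Gstm1, the acute-phase genes Saa1 and Saa2, the chemokines Cxcl1 and Cxcl2, and Igf2 with Ins2.

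**Figure D2:**
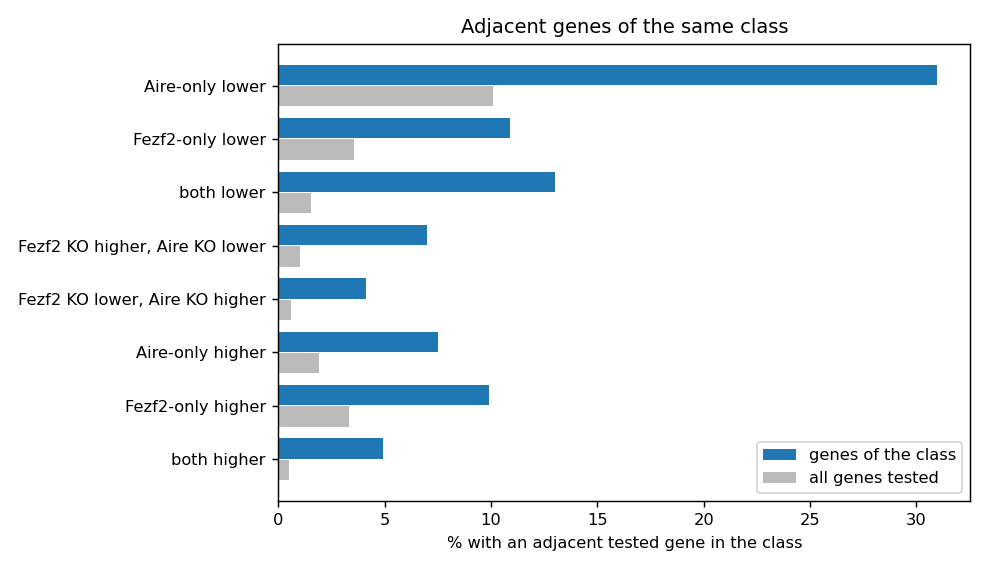
Percent of the genes of each class that had an adjacent tested gene of the same class (blue) and the same percent for all genes tested (grey). Genes lower only in the labelled Aire KO libraries stand highest, at 31.0% against 10.1%.

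The genes lower only in Fezf2 KO changed less and were more highly expressed than those lower only in the labelled Aire KO libraries. Over the 302, the median Fezf2 effect was -1.36 and the median Aire effect 0.27, with median levels of 40.4 CPM in the WT for Fezf2 and 35.7 CPM in the WT for Aire. Only 1 of the 302 had no reads in Fezf2 KO. The class held 144, 176 and 198 genes without Fezf2 KO B, Fezf2 KO C and WT for Aire A. Beside Fezf2 itself, Pnp2, a purine nucleoside phosphorylase (chr14:50955992-50964749), stood at 0.682, 0.799 and 0.223 CPM in Fezf2 KO, against 22.3, 30.7 and 23.1 CPM in its WT, while the labelled Aire KO libraries held 46.5, 26.9 and 19.0 CPM, against 26.8, 32.6 and 36.3 CPM. Its difference was -5.32 (SE 0.55, adjusted p = 1.31e-05). It overlaps its near-identical neighbour Pnp, so its counts are uncertain.

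Il13, the type 2 cytokine interleukin 13, stood at 3.07, 1.20 and 3.12 CPM in Fezf2 KO, against 8.60, 46.0 and 9.66 CPM in its WT, while the labelled Aire KO libraries held 29.8, 18.1 and 33.8 CPM, against 13.3, 9.36 and 17.1 CPM. Neither comparison overlapped, but only the Fezf2 effect passed (-3.09, SE 0.60, adjusted p = 0.00391; Aire effect 1.04, adjusted p = 0.239). Library B of the WT for Fezf2 stood far above the other libraries of its group. Over the 20 alternative settings, its omission among them, the Fezf2 effect stayed called and ran from -3.46 to -1.86. Csrnp3, a nuclear transcriptional activator, stood at 1.71, 1.80 and 1.34 CPM in Fezf2 KO, against 11.7, 7.16 and 12.2 CPM in its WT, and its groups overlapped in the Aire comparison. Its difference was -3.43 (SE 0.63, adjusted p = 0.00161). Lrrc9, a leucine-rich repeat gene with a gene annotated on the opposite strand, and Fabp12, a fatty acid-binding protein, had differences of -4.41 (SE 0.80, adjusted p = 0.00159) and -3.65 (SE 0.73, adjusted p = 0.00323). Strand handling in the counting is not stated.

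Genes lower in both comparisons fell by similar medians. Over the 131 the median Fezf2 effect was -1.31 and the median Aire effect -1.48, and the difference was called for 31 of them, 26 above 0 and 5 below 0; the absence of a call in the others does not show equal falls. Without any 1 of the Fezf2 KO libraries, Aire KO B or WT for Aire B or C the class held 70.0 to 85 genes. Between the controls 13.7% of the 131 were called, 17 of the 18 higher in the WT for Fezf2, against 1.77% of all genes. Spink4, a protease inhibitor of goblet cells, stood at 9.04, 10.6 and 8.69 CPM in Fezf2 KO, against 36.0, 100 and 46.0 CPM in its WT, while the labelled Aire KO libraries held 4.4, 4.19 and 5.35 CPM, against 15.8, 27.2 and 33.2 CPM. Neither comparison overlapped, and the difference of -0.24 had an SE of 0.54 (adjusted p = 0.832).

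The serum amyloid genes, whose products are acute-phase proteins, were also lower in both. Saa3 stood at 97.6, 96.1 and 65.1 CPM in Fezf2 KO, against 751, 1580 and 713 CPM in its WT, while the labelled Aire KO libraries held 71.9, 97.3 and 81.0 CPM, against 338, 382 and 637 CPM. Its effects were -3.55 (SE 0.32, adjusted p = 7.39e-06) and -2.44 (SE 0.31, adjusted p = 5.82e-05), and their difference of -1.12 did not pass (SE 0.42, adjusted p = 0.0963). Saa1 had a Fezf2 effect of -2.34 and an Aire effect of -2.86, with a difference of 0.52 (SE 0.54, adjusted p = 0.605). Fabp2, the intestinal fatty acid-binding protein, had effects of -1.89 and -2.16, and Vnn3, a pantetheinase, of -2.31 and -1.87. Klk1b26, a kallikrein, had effects of -1.94 and -1.95, of which the Fezf2 effect was lost without Fezf2 KO A or C and the Aire effect without Aire KO A or B or WT for Aire C (adjusted p of at most 0.0842). Ins2, insulin, fell in both but unequally. It stood at 15.9, 18.6 and 10.9 CPM in Fezf2 KO, against 38.3, 79.6 and 45.7 CPM in its WT. In the labelled Aire KO libraries it had 1 read against 448 in their WT, a 412-fold ratio (95% counting interval 73.6 to 16300). Its difference of 6.40 passed (SE 0.87, adjusted p = 0.000144).

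A total of 86 genes were higher in Fezf2 KO and lower in the labelled Aire KO libraries, with a median Fezf2 effect of 1.35 and a median Aire effect of -1.42. Without library B of the WT for Fezf2 the class held 162 genes, and without Fezf2 KO A or B or Aire KO B it held 52, 47 and 57. Lefty2, a secreted inhibitor of nodal signalling (chr1:180893108-180899103), stood at 107, 84.3 and 106 CPM in Fezf2 KO, against 50.4, 27.6 and 43.4 CPM in its WT. It had 0 reads in the labelled Aire KO libraries, against 32.5, 25.1 and 32.4 CPM, at least 128-fold lower. Every Fezf2 KO library lay above every WT (1.29, SE 0.23, adjusted p = 0.00286), and the difference of effects was at least 8.29 (adjusted p = 2.22e-07). Psca, a surface protein first described in prostate, stood at 360, 316 and 323 CPM in Fezf2 KO, against 94.0, 127 and 78.2 CPM in its WT, while the labelled Aire KO libraries held 3.67, 1.76 and 1.95 CPM, against 118, 97.0 and 82.7 CPM. Its difference of 7.07 (SE 0.36, adjusted p = 1.51e-08) combined a rise of 1.74 and a fall of -5.33.

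Several other genes of this class are known from barrier epithelia. Gp2, the uptake receptor of microfold cells, stood at 497, 493 and 532 CPM in Fezf2 KO, against 283, 237 and 327 CPM in its WT, while the labelled Aire KO libraries held 76.8, 64.0 and 121 CPM, against 222, 380 and 306 CPM. Krt5, the basal epithelial keratin that also marks mTECs, stood at 812, 1011 and 1344 CPM in Fezf2 KO, against 325, 418 and 372 CPM in its WT, while the labelled Aire KO libraries held 260, 286 and 250 CPM, against 448, 477 and 344 CPM. Neither gene overlapped in either comparison, and their differences were 2.64 (SE 0.33, adjusted p = 6.73e-05) and 2.18 (SE 0.27, adjusted p = 7.16e-05). Muc5b, a gel-forming airway mucin, had a difference of 5.59 (SE 1.03, adjusted p = 0.00176). Psg20, a pregnancy-specific glycoprotein, and Slc6a3, the dopamine transporter, had no reads in the labelled Aire KO libraries and rose by 1.76 and 1.52 in Fezf2 KO. Both rises were lost without Fezf2 KO A or B (adjusted p of at most 0.0787 and 0.0989).

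The reverse pattern, lower in Fezf2 KO and higher in the labelled Aire KO libraries, held for 49 genes with median effects of -1.0 and 0.91. Without library B of the WT for Fezf2 the class held 114 genes, and without any 1 library of Fezf2 KO or the WT for Aire, or Aire KO B or C, 18 to 31; 2 of the 49 stayed in it under every setting. Of the 49, 5 (10.2%) were lower in the WT for Fezf2 when the WT groups were compared, where 0.774% of all genes were. Foxd3, a forkhead factor of the neural crest (chr4:99656299-99658622), stood at 0.171, 0.799 and 1.11 CPM in Fezf2 KO, against 6.35, 4.86 and 7.78 CPM in its WT, while the labelled Aire KO libraries held 11, 16.1 and 16.5 CPM, against 5.73, 4.11 and 7.87 CPM. Maoa, monoamine oxidase A, which breaks down monoamines, stood at 3.58, 5.39 and 6.24 CPM in Fezf2 KO, against 21.1, 30.7 and 23.3 CPM in its WT, while the labelled Aire KO libraries held 45.0, 44.8 and 65.5 CPM, against 20.5, 17.4 and 34.8 CPM. Both genes were split without overlap in both comparisons, as the choice of named genes required. Their differences were -4.50 (SE 0.67, adjusted p = 0.000315) and -3.40 (SE 0.42, adjusted p = 6.6e-05).

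Il13ra2, a decoy receptor for interleukin 13, stood at 3.58, 4.80 and 3.12 CPM in Fezf2 KO, against 13.3, 16.1 and 13.7 CPM in its WT, while the labelled Aire KO libraries held 16.4, 17.2 and 23.4 CPM, against 10.2, 8.45 and 10.3 CPM. The gene of its ligand, Il13, was lower in Fezf2 KO too. Kcnj3, a potassium channel subunit, had a difference of -3.14 (SE 0.49, adjusted p = 0.000481). Hdc, the histamine-forming enzyme abundant in mature mTECs, stood at 442, 404 and 338 CPM in Fezf2 KO, against 987, 626 and 959 CPM in its WT, while the labelled Aire KO libraries held 2279, 2185 and 2325 CPM, against 1453, 1256 and 1353 CPM. Its difference was -1.86 (SE 0.25, adjusted p = 0.000141), and neither comparison overlapped. The differences of Foxd3, Maoa, Kcnj3 and Il13ra2 kept their call in every setting tried, but their Aire effects lay near the threshold. That of Foxd3 and that of Kcnj3 were lost without any 1 of the 6 libraries of the Aire comparison, that of Il13ra2 without 5 of them and that of Maoa without 3 (adjusted p of at most 0.189, 0.16, 0.119 and 0.0859).

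**Figure D3:**
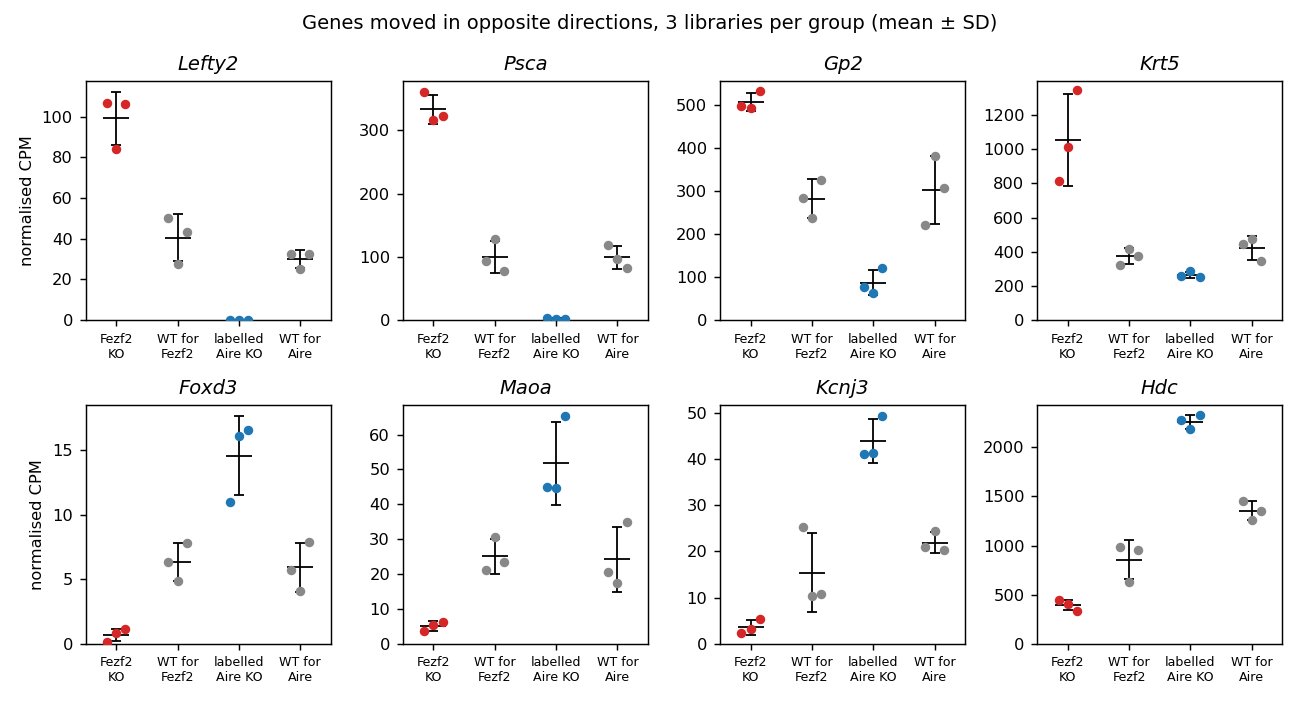
Normalised CPM of 8 genes in every library (points), with the mean and SD of each group of 3; the upper row shows genes higher in Fezf2 KO and lower in the labelled Aire KO libraries, the lower row the reverse. In each panel the red Fezf2 KO points and the blue points of the labelled Aire KO libraries lie on opposite sides of their own grey WT points.

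Median increases lay below median decreases in size for the genes that responded only in the labelled Aire KO libraries (0.95 against -4.22), and near them for those that responded only in Fezf2 KO (1.38 against -1.36). The 159 genes higher only in the labelled Aire KO libraries had a median Aire effect of 0.95 and a median Fezf2 effect of -0.31, and the 282 higher only in Fezf2 KO had a median Fezf2 effect of 1.38 and a median Aire effect of -0.29. Without library B of the WT for Fezf2 these classes held 333 and 363 genes. The first held 75 to 102 without Aire KO B or C or any 1 library of the WT for Aire, and the second 182 without Fezf2 KO B. Ctla4, an inhibitory receptor best known from T cells, stood at 6.82, 2.80 and 2.90 CPM in Fezf2 KO, against 9.01, 6.40 and 15.8 CPM in its WT, while the labelled Aire KO libraries held 60.9, 76.8 and 104 CPM, against 22.3, 12.8 and 26.2 CPM. Its Aire effect was 1.98 (SE 0.35, adjusted p = 0.00111) and its difference -3.26 (SE 0.54, adjusted p = 0.000793). Its Fezf2 effect of -1.28 missed the threshold (adjusted p = 0.0673; called lower in 6 of 20 alternative settings). Summed thymocyte markers stood at 333 to 430 CPM in the labelled Aire KO libraries, against 241 to 356 CPM in their WT, and their part in this result was not tested. Rgr, a retinal opsin-like receptor, stood at 8.32, 7.72 and 15.1 CPM in the labelled Aire KO libraries, against 1.43, 1.83 and 1.97 CPM in their WT, and had a difference of -4.19 (SE 0.82, adjusted p = 0.00267). Xlr4b and Pagr1a, with differences of -4.72 and -5.42, have near-identical copies, so their counts are uncertain. The difference of Xlr4b was lost with sample quality weights and that of Pagr1a under 7 settings (adjusted p of at most 0.0968 and 0.451).

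Anxa1, annexin A1, an anti-inflammatory membrane-binding protein, changed by far more than most genes higher only in Fezf2 KO. It stood at 3665, 3274 and 4121 CPM in Fezf2 KO, against 397, 370 and 403 CPM in its WT, while the labelled Aire KO libraries held 268, 287 and 273 CPM, against 443, 507 and 283 CPM. Its Fezf2 effect was 3.24 (SE 0.20, adjusted p = 1.2e-07), its Aire effect of -0.57 did not pass (adjusted p = 0.057), and its difference was 3.81 (SE 0.27, adjusted p = 3.5e-07). Of the genes with the largest differences, F2rl2, a protease-activated receptor, had 222 reads in Fezf2 KO and 2 in its WT, a 94.2-fold ratio (95% counting interval 25.8 to 783). It overlaps Iqgap2 on the other strand, so reads of the overlap cannot be told apart. Sprr2a1, a cornified envelope gene with near-identical copies beside it, rose by 3.88, a call lost under DESeq2 and without Fezf2 KO B or C (adjusted p of at most 0.174). Dgat2l6, an acyltransferase, and Krtap3-2, a hair keratin-associated protein, rose by 3.10 and 3.0, and both calls were lost without any 1 of the Fezf2 KO libraries (adjusted p of at most 0.13 and 0.14).

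The 41 genes higher in both comparisons included Lum and Dcn, small proteoglycans of connective tissue. The class held 116 genes without library B of the WT for Fezf2, and 15 to 26 without Fezf2 KO A or B, Aire KO A or B or WT for Aire B or C. Lum, lumican, stood at 14, 19.2 and 16.0 CPM in Fezf2 KO, against 3.89, 3.84 and 4.95 CPM in its WT, while the labelled Aire KO libraries held 17.9, 23.4 and 19.2 CPM, against 10.03, 2.74 and 6.34 CPM. Neither comparison overlapped, and the difference of 0.30 did not pass (SE 0.52, adjusted p = 0.776). Slit1, an axon guidance ligand, had effects of 2.29 and 1.14, with a difference of 1.15 (adjusted p = 0.043) lost in 10 of 19 settings. Colec12, a scavenger receptor of endothelium, had effects of 2.36 and 1.18, of which the Fezf2 effect was lost with all 6 WT libraries as 1 control and the Aire effect without Aire KO B or WT for Aire C (adjusted p of at most 0.0788 and 0.0574). Its difference of 1.18 did not pass (adjusted p = 0.0694) and ran from -0.58 to 1.43 over the settings. Myot, a muscle Z-disc protein, rose by 1.24 in both, but its Fezf2 effect was lost without Fezf2 KO B and with all 6 WT libraries as 1 control (adjusted p of at most 0.518), where its difference turned from 0.00 to -1.30. Of the 41, 13 (31.7%) were lower in the WT for Fezf2 when the WT groups were compared, Myot and Colec12 among them, against 0.774% of all genes. Summed fibroblast and endothelium markers stood at 293 to 354 CPM in Fezf2 KO, against 177 to 259 CPM in its WT, and at 431 to 536 CPM in the labelled Aire KO libraries, against 267 to 309 CPM. Their part in these calls was not tested, and in bulk libraries more cells of a type and more RNA per cell cannot be told apart.

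Lists of tissue genes separated the regulators. Members with a difference above 0 are read against 8.73% of all genes and those below 0 against 3.85%. Members called lower are read against 9.58% of all genes in the labelled Aire KO libraries and 4.8% in Fezf2 KO. Of 13 pancreas genes tested, 8 had a difference above 0 and 0 below, and 12 were lower in the labelled Aire KO libraries against 3 in Fezf2 KO. The median Fezf2 effect was -0.82 and the median Aire effect -3.18 with genes without reads at their bound. Of 13 brain genes 8 were above 0 and 0 below (median Fezf2 effect 0.06, median Aire effect -2.77), of 11 salivary gland and milk genes 7 above and 1 below (-0.68 and -4.14), and of 19 liver genes 8 above and 2 below (-0.38 and -2.02). The exceptions among the liver genes were Apoc3, an apolipoprotein, and Ttr, the thyroid hormone carrier transthyretin, both lower only in Fezf2 KO. The call of Ttr was lost without library B of the WT for Fezf2 and under 8 other settings (adjusted p of at most 0.273). Over all genes tested the median effects were -0.04 and -0.01.

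Several intestinal genes fell in both comparisons. Of 19 tested, 9 were lower in Fezf2 KO, where 4.8% of all genes were, and 13 in the labelled Aire KO libraries, where 9.58% were. The difference was above 0 for 7 and below 0 for 2, and the median effects were -1.11 and -1.53. A group of 6 fell in both, namely Apoa4, Fabp1 and Fabp2 of lipid handling, the lectin Lgals4, the mucin Muc13 and Spink4. A group of 7 fell only in the labelled Aire KO libraries, namely Muc2, the goblet cell mucin, Cdx2, the intestinal homeobox factor, Reg3b, Reg3g and Reg4, secreted lectins, Slc5a1, the glucose transporter, and Tff3, a trefoil peptide. Tff3 stood at 133, 112 and 130 CPM in Fezf2 KO, against 92.0, 238 and 106 CPM in its WT, while the labelled Aire KO libraries held 4.4, 2.65 and 4.87 CPM, against 57.5, 71.0 and 58.4 CPM. The brush border genes Sis, sucrase-isomaltase, and Vil1, villin, fell only in Fezf2 KO, by -2.30 and -2.28, with Aire effects of -0.11 and -0.38 that did not pass. The difference of Cdx2 was lost without any of 8 libraries in turn (adjusted p of at most 0.0879).

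Most airway genes fell in the labelled Aire KO libraries, and some rose in Fezf2 KO. Of 11 lung and airway genes 9 had a difference above 0 and 0 below, with 9 lower in the labelled Aire KO libraries, where the background for lower genes was 9.58%. In Fezf2 KO 3 were higher and 0 lower, where 4.03% of all genes were higher, and the median Fezf2 effect of the 11 was -0.21. The 3 were Muc5b, Napsa, a surfactant-processing protease, and Scgb1a1, the club cell secretoglobin. Muc5b stood at 19.3, 17.4 and 57.7 CPM in Fezf2 KO, against 5.12, 5.88 and 9.19 CPM in its WT, while the labelled Aire KO libraries held 0.489, 0 and 0.73 CPM, against 2.25, 8.67 and 2.19 CPM. Every Fezf2 KO library lay above every WT, with library C highest, and every labelled Aire KO library lay below its WT.

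Genes often cited for each regulator were set side by side. They were chosen from general knowledge of earlier work, so their direction in their own knockout is not independent evidence. Of 9 Aire-dependent examples 8 had a difference above 0, and the milk casein Csn2 went the other way, higher in the labelled Aire KO libraries (0.70, difference -1.06). Of 9 Fezf2-dependent examples all 9 fell in Fezf2 KO, where 4.8% of all genes did, while 4 fell and 1 rose in the labelled Aire KO libraries, and 7 had a difference below 0. The 4 were Apob, an apolipoprotein, Calb1, calbindin, Fabp9, a testis fatty acid-binding protein, and Krt10, a keratin of differentiated epidermis. Apob and Calb1 had Fezf2 effects of -1.14 and -1.59 and Aire effects of -1.87 and -1.91, with differences of 0.73 and 0.32 that did not pass. Resp18, an endocrine secretory granule protein, stood at 23.4, 25.0 and 14.5 CPM in Fezf2 KO, against 116, 244 and 125 CPM in its WT, while the labelled Aire KO libraries held 128, 83.2 and 148 CPM, against 82.3, 116 and 148 CPM, which overlapped.

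**Figure D4:**
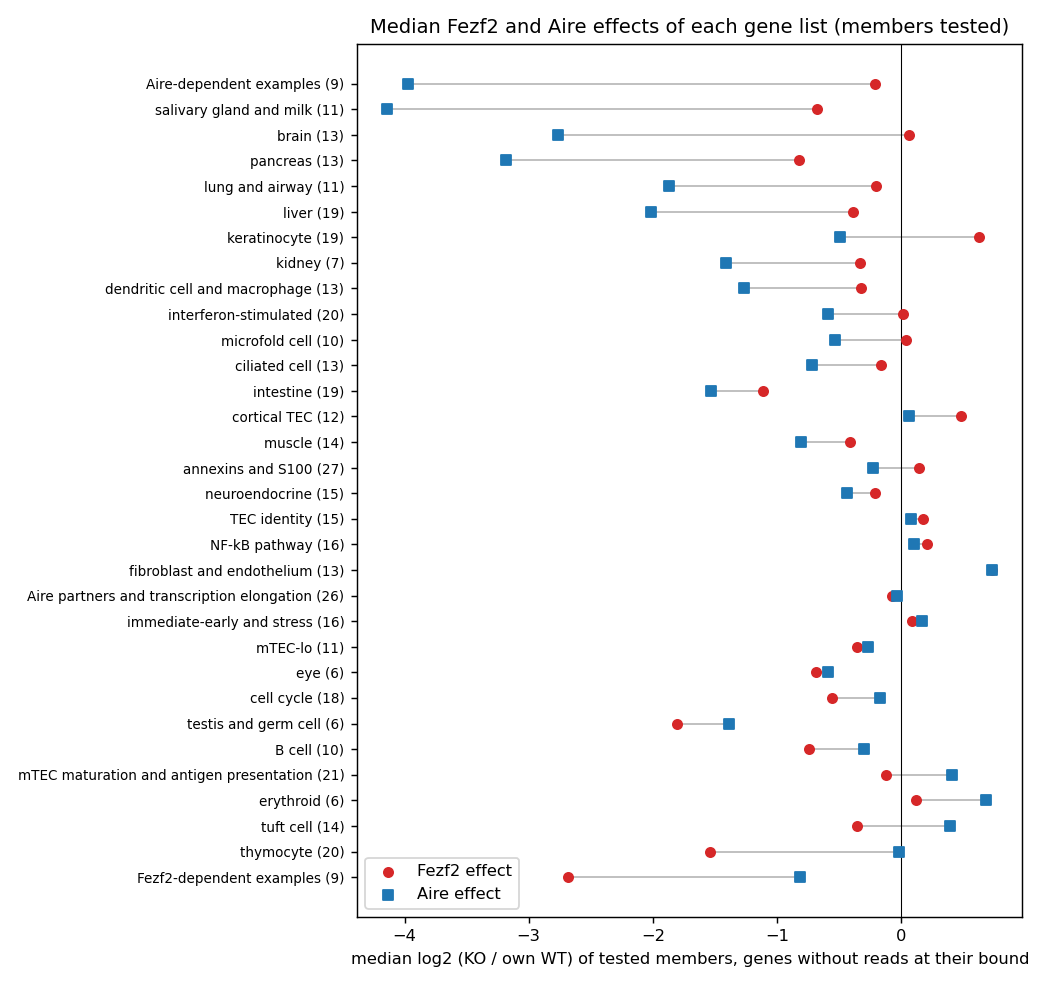
Median log2 effect of KO over its own WT for the tested members of each of 32 gene lists, with the number tested, in Fezf2 KO (red circles) and in the labelled Aire KO libraries (blue squares). Pancreas, brain, liver and salivary gland and milk genes lie far lower in the labelled Aire KO libraries, intestine genes low in both, and the Fezf2-dependent examples and thymocyte genes lower in Fezf2 KO.

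Genes of mTEC biology itself also split. Of 21 genes of mTEC maturation and antigen presentation 8 had a difference below 0 and 1 above. Besides Aire, Fezf2 and Hdc, the 8 included Ciita, the master regulator of MHC class II genes, H2-DMb1, H2-Ob and H2-Oa of class II peptide loading, and the hormone Fgf21. Ciita, H2-DMb1 and H2-Ob rose only in the labelled Aire KO libraries, by 0.54, 0.59 and 0.80, and H2-Oa fell only in Fezf2 KO, by -0.70. The class II chains H2-Aa, H2-Ab1 and H2-Eb1 had differences of 0.19, 0.32 and -0.08 that did not pass. Ccl17, a chemokine ligand of CCR4, fell in both, while Ccl22, its relative, stood at 351, 302 and 182 CPM in Fezf2 KO, against 620, 357 and 454 CPM in its WT, while the labelled Aire KO libraries held 270, 183 and 86.4 CPM, against 835, 1059 and 711 CPM. The difference of Ccl22 (1.5, SE 0.47, adjusted p = 0.0446) was lost without 7 of the 12 libraries in turn and with all 6 WT libraries as 1 control (adjusted p of at most 0.276).

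Interferon-stimulated genes fell mainly in the labelled Aire KO libraries. Of 20 tested, 9 were lower in the labelled Aire KO libraries, where 9.58% of all genes were, and 2 in Fezf2 KO, where 4.8% were. The difference was above 0 for 6 and below 0 for 1. Ifit2, an interferon-induced RNA-binding protein, stood at 28.3, 45.8 and 34.3 CPM in Fezf2 KO, against 38.3, 24.6 and 43.1 CPM in its WT, which overlapped. It stood at 6.61, 5.74 and 7.79 CPM in the labelled Aire KO libraries, against 36.2, 44.3 and 27.1 CPM. Its difference was 2.45 (SE 0.39, adjusted p = 0.000512). Rsad2, the antiviral enzyme viperin, Ifit3, Ifi44, Irf9 and Isg15 were the others above 0, of which Ifi44 lost its call in 9 of 19 settings (adjusted p of at most 0.148), and Cxcl10, a T cell chemokine, was lower only in Fezf2 KO.

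Members of the annexin and S100 families, calcium-binding proteins whose genes lie apart or in a cluster, differed in class. Of 27 tested, 9 had a difference above 0 and 6 below. In no class were 11 of the 27, among them Anxa4, Anxa5, Anxa7, Anxa11 and Anxa13. Higher only in Fezf2 KO were 5 annexins, where 1.71% of all genes were, namely Anxa1, Anxa2, Anxa3, Anxa6 and Anxa9. Anxa10 fell only in Fezf2 KO. Anxa10 stood at 14.8, 14.8 and 15.2 CPM in Fezf2 KO, against 95.4, 94.7 and 89.3 CPM in its WT, while the labelled Aire KO libraries held 88.3, 71.5 and 109 CPM, against 65.5, 86.0 and 84.4 CPM, with a difference of -2.83 (SE 0.26, adjusted p = 4.29e-06). S100a8, S100a9, S100a7a and S100a10 fell only in the labelled Aire KO libraries, and S100a4, S100a6 and S100a13 rose only there. S100a1 and S100g fell only in Fezf2 KO, by -0.98 and -1.20, and Anxa8 fell in both.

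Epithelial differentiation genes differed in class. Of 19 keratinocyte genes 9 had a difference above 0 and 1 below, with 5 higher only in Fezf2 KO (Sprr1a, Lor and Sbsn of the cornified layer, the protease inhibitor Spink5 and the factor Grhl1) and 3 lower only in the labelled Aire KO libraries (Lce3a, Sprr3 and Casp14, whose difference was lost in 2 of 19 settings). The keratins Krt1 and Krt10 were lower in both, and 9 of the 19 were in no class. Sprr1a stood at 659, 836 and 871 CPM in Fezf2 KO, against 204, 415 and 214 CPM in its WT, while the labelled Aire KO libraries held 129, 149 and 148 CPM, against 204, 198 and 157 CPM. Of 12 cortical epithelial genes 4 were above 0 and 1 below. Ctsl, the protease that shapes peptides in cortical epithelium, stood at 1168, 1038 and 1252 CPM in Fezf2 KO, against 352, 274 and 493 CPM in its WT, and its Aire effect of -0.13 did not pass (difference 1.76, SE 0.34, adjusted p = 0.0023). Psmb11 and Prss16, which define cortical epithelium, had Fezf2 effects of -0.28 and 0.40 that did not pass. Summed cortical markers stood at 3750 to 4440 CPM in Fezf2 KO, against 2120 to 2730 CPM in its WT. They were also higher in the labelled Aire KO libraries, at 2320 to 3580 CPM against 2010 to 2180 CPM in their WT. The part of these markers in the results was not tested. Of 15 genes of thymic epithelial identity, the paired box factors Pax1 and Pax9 had a difference above 0 and rose only in Fezf2 KO. Their differences of 1.16 and 0.78 were lost in 6 and 10 of 19 settings (adjusted p of at most 0.0595 and 0.0995).

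Genes of other cells were read for what the sort could hold. Of 20 thymocyte genes 10 were lower in Fezf2 KO, where 4.8% of all genes were, and 0 higher, and 4 had a difference below 0. Yet 15 of the 20 were higher in the WT for Fezf2 when the WT groups were compared, where 0.992% of all genes were. Their summed level was 450 to 504 CPM in Fezf2 KO, against 724 to 1220 CPM in its WT. Dntt, the terminal transferase of early thymocytes, stood at 26.9, 34.6 and 28.5 CPM in Fezf2 KO, against 114, 101 and 59.9 CPM in its WT, while the labelled Aire KO libraries held 5.87, 10.2 and 10.5 CPM, against 4.91, 11.2 and 12.2 CPM. Its level in Fezf2 KO lay above that of both groups of the Aire comparison, and its difference of -1.52 (adjusted p = 0.0376) was lost in 11 of 19 settings and turned to 1.76 with all 6 WT libraries as 1 control, as that of the kinase gene Lck turned from -1.46 to 0.60. Among 13 dendritic cell and macrophage genes 5 had a difference above 0 and 2 below. Adgre1, the macrophage marker F4/80, stood at 26.3, 38.8 and 19.4 CPM in Fezf2 KO, against 32.8, 17.1 and 23.8 CPM in its WT, while the labelled Aire KO libraries held 0.734, 0.662 and 1.22 CPM, against 32.5, 27.4 and 18.1 CPM. The complement genes C1qa, C1qb and C1qc and the receptor gene Csf1r were the others above 0, and Batf3, a dendritic cell factor, and Lyz2, lysozyme, lay below. The whole list summed to 794 to 1100 CPM in Fezf2 KO, against 1180 to 1450 CPM in its WT. It summed to 1250 to 1890 CPM in the labelled Aire KO libraries, against 1240 to 1460 CPM in their WT. Itgax alone had 0 reads in the labelled Aire KO libraries. Summed B cell markers stood at 87.5 to 95.2 CPM in Fezf2 KO, against 127 to 255 CPM in its WT. In the Aire comparison they stood at 85.4 to 162 CPM, against 89.8 to 121 CPM. The part of such cells in the results was not tested.

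In each of the remaining lists, several of them small, 0 to 3 genes had a difference in either direction. Of 26 Aire partners and elongation factors, 1 was below 0, as were 3.85% of all genes, and 0 above, namely Sirt1, a deacetylase that acts on Aire, with an Aire effect of 0.65 and a Fezf2 effect of -0.38 that did not pass. Its difference was lost without Fezf2 KO C or WT for Aire B (adjusted p of at most 0.0557). Chd4, the NuRD helicase, stood at 25.8, 30.2 and 37.2 CPM in Fezf2 KO, against 40.8, 125 and 42.6 CPM in its WT, while the labelled Aire KO libraries held 36.9, 27.6 and 24.8 CPM, against 32.5, 39.7 and 44.4 CPM. Its Fezf2 effect of -1.16 (adjusted p = 0.0464) was lost without library B of the WT for Fezf2 and under 13 other settings, and the difference of -0.78 did not pass. Of 18 cell cycle genes 1 was below 0 (Pcna, lost in 11 of 19 settings, adjusted p of at most 0.17), of 16 stress genes 1 below (Hsp90aa1, lost in 2 of 19, adjusted p of at most 0.127), and of 16 NF-kB genes 1 above (Tnfaip3) and 1 below (Map3k14). Above 0 were 8.73% of all genes. For tuft cells it was 1 of 14 above 0, for ciliated cells 1 of 13, for neuroendocrine cells 2 of 15, for microfold cells 3 of 10, for kidney 2 of 7, for fibroblast and endothelium 1 of 13 (Col1a1) and for erythroid cells 1 of 6. The labelled Aire KO libraries had 4 of 7 kidney, 4 of 10 microfold and 5 of 15 neuroendocrine genes lower and 0 higher. Of all genes 9.58% were lower there. Eye and muscle had 2 above and 1 below each, of 6 and 14 tested, mTEC-lo genes 1 above and 1 below of 11, and testis 1 below of 6. The median difference of 10 B cell genes was -0.13.

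The number of genes detected differed between the Aire groups and hardly between the Fezf2 groups. With every library thinned to 3935102 exon reads, 21289 ± 197 genes had at least 1 read in Fezf2 KO and 21368 ± 316 in its WT, and 18789 ± 156 in the labelled Aire KO libraries and 21235 ± 356 in their WT (SD, n = 3 each). The difference of effects was 2367 genes and did not pass (exact two-sided permutation p = 0.07 over 400 arrangements). Labels were permuted within both comparisons at once, so this p-value also holds the spread of the Fezf2 groups. It does not test the Aire groups alone. Its smallest possible value, 0.005, needs both comparisons split completely, in opposite directions. All 3 labelled Aire KO libraries lay below all 9 others. Without library C of the WT for Fezf2 the difference of effects passed (2488 genes, permutation p = 0.04). Leaving out any other 1 library gave permutation p-values of at least 0.05, which did not pass.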

How the data were processed

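The deposited tables hold, per the file headers, the count of exon reads per gene and library that the authors obtained from trimmed single Ion Torrent reads; gene identifiers are Ensembl and the builds named in the submitters' processing notes are GRCm38 and mm10. Their annotation column of exon length is in bases. The aligner, strand handling and treatment of reads that match several places are not stated in those sources. Columns carry a genotype but no replicate number, so libraries were placed in groups only and lettered by barcode. A further 144 columns of per-library values were not used.

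Counts were fitted with edgeR 4.0.16 (R 4.3.3; TMM scaling, filterByExpr, quasi-likelihood F test) over the 4 groups, leaving 16532 of 49585 genes. Contrasts were the Fezf2 effect, the Aire effect, their difference and the difference between the WT groups, each Benjamini-Hochberg adjusted over all genes at 0.05. SE is the absolute log2 fold change over the square root of F. Normalised CPM use TMM library sizes. The procedure was tested on simulated data. Alternatives were DESeq2 1.42.0 and voom weights in limma 3.58.1, other scaling, no filter, all WT as 1 control, each comparison on its own 6 libraries, each library left out and, added after seeing the data, sex as a term. Members and gene lists were chosen with earlier results of these data known. Named genes were Aire, Fezf2 and Chd4, per class the genes with the largest difference (both classes: the largest smaller effect) among those without overlap of KO and WT, at 5 CPM or more in the higher group and with no predicted-gene symbol (6 for Aire-only lower, Fezf2-only lower and both lower, otherwise 4), and up to 4 called members per list with the largest difference. Gm6768, the threshold genes, genes of runs and further list members were named beyond this rule, after their values were seen. Genes without reads in a group are given as bounds from 3 reads.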

Additional observations from a re-analysis of the deposited data

How the results depend on the processing

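No paired analysis was possible because the columns of counts carry no replicate number. Under DESeq2 the WT difference was called for 427 genes higher and 304 lower, the class higher in Fezf2 KO and lower in Aire KO held 142 genes, its reverse 78 and both higher 72. Without scaling beyond totals, which moved the median Aire effect to -0.14, the Aire effect was called higher for 263 genes (12.6% of its calls, against 22.5%), with 89 Aire-only higher and 23 both higher. Without a filter the WT difference gave 568 and 415 genes, and the classes 217 both lower, 160 and 81 opposite and 80 both higher. Voom with sample weights called 1126 differences below 0, Fezf2 effects of 1207 genes higher and 1385 lower, 1126 Aire effects higher (36.5%), and 439 and 380 WT differences, with classes of 279 both lower, 196 and 146 opposite, 347 Aire-only higher, 507 Fezf2-only higher and 136 both higher. With all 6 WT as 1 control 2658 differences lay above and 1762 below 0 (60.1% above, against 69.4%), 1035 Aire effects were higher, and classes held 1554 Aire-only lower, 184 and 126 opposite and 565 Aire-only higher; of the values called in either fit, the differences of Myot (-1.30), Dntt (1.76) and Lck (0.60) turned sign, and uncalled ones did too, such as those of Colec12 (-0.58) and Saa3 (0.05). On their own 6 libraries, 389 Fezf2 effects were higher, 376 lower, and 856 Aire effects higher (37.9%). With sex as a term 61 and 56 WT differences were called.

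Leaving out 1 library gave 1123 to 1836 differences above and 395 to 933 below 0, 360 to 877 Fezf2 effects higher and 352 to 878 lower, 198 to 1042 Aire effects higher and 1137 to 2138 lower, and 26 to 209 and 13 to 241 WT differences. Classes ranged from 712 to 1103 (Aire-only lower), 144 to 327 (Fezf2-only lower), 70 to 175 (both lower), 47 to 162 and 18 to 114 (opposite), 75 to 333 (Aire-only higher), 182 to 363 (Fezf2-only higher) and 15 to 116 (both higher), and the difference in genes detected from 2189 to 2571. The highest counts mostly came without library B of the WT for Fezf2; the cause was not tested. Genes in their class in all 19 settings were 502 of the 897 Aire-only lower, 69 of 302 Fezf2-only lower, 26 of 131 both lower, 22 of 86 and 2 of 49 opposite, 34 of 159 Aire-only higher, 97 of 282 Fezf2-only higher and 3 of 41 both higher. Of 3816 values of named genes 3559 stayed called or uncalled, 223 lost the call, 31 gained one and 3 turned sign with a call in at least one fit; a further 37 of the 3559, uncalled in both fits, changed sign.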

Other observations

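The predicted gene Gm6768 (chromosome 12) was split completely by genotype in the Fezf2 comparison and mixed in the Aire comparison. It had 700, 534 and 482 exon reads in Fezf2 KO, against 0 in all 3 libraries of its WT. It had 357, 377 and 18 reads in the labelled Aire KO libraries, against 381, 377 and 0 in their WT, so library C of each Aire group stood apart from A and B.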
